A study of Mus musculus with 26 samples.

Results

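The mir-30 family is a group of microRNAs (miRNAs), small RNAs of about 22 bases that pair with messenger RNAs and lower their translation or stability. In the table of small RNA counts, the family was taken as the 6 precursor entries mmu-mir-30a, mmu-mir-30b, mmu-mir-30c-1, mmu-mir-30c-2, mmu-mir-30d and mmu-mir-30e, chosen by name from 1054 miRNA entries. All 6 passed the filter on low counts, which left 463 miRNA entries to test. The 26 libraries came from dorsal (dHC) and ventral (vHC) hippocampus, both hemispheres, of male C57BL/6J mice aged 2 to 3 months. Control mice stayed in their homecage, and acute stress (AS) was a swim of 6 min in water of 18 °C, with tissue labelled as taken 45 mins after stress. There were 8 control vHC, 6 swim vHC, 6 control dHC and 6 swim dHC libraries. The labels also put each library in 1 of 3 blocks, each named by a date, without saying which step the date refers to. Block 1 held 10 libraries (4 control vHC and 2 of each other group), and blocks 2 and 3 held 8 each (2 of every group). The labels do not say which dHC and vHC libraries share a mouse, so that p-values measure the spread between libraries.

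A miRNA is cut from a hairpin precursor, and either arm of the hairpin (5p or 3p) can become the mature miRNA. The bases at positions 2 to 8 of the mature miRNA, the seed, are the main determinant of which messenger RNAs it pairs with, and family members are defined by sharing it. The mir-30 family is broadly expressed in mammalian tissue, and in the brain it is found in neurons and glia. Its members lie in 3 genomic pairs, and the members of a pair can be cut from a common primary transcript.

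Mature sequences were held by the RefSeq table (build GRCm38.p6) for 4 of the 6 members. The 5p sequences are shown because the members share their seed and differ behind it, and the block results are read against these differences. Capitals mark the seed.
mmu-miR-30a-5p: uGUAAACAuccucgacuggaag
mmu-miR-30e-5p: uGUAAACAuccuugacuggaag
mmu-miR-30c-5p: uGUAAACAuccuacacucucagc
The first 12 bases were the same in these 3 sequences. Counted from 1 at the 5′ end, with the base of mmu-miR-30a-5p first, mmu-miR-30e-5p differed from it by C13U alone, and both ended in the same 9 bases. Against mmu-miR-30c-5p, which is 1 base longer, the differences over 22 positions were C13A, G14C, G18C, G19U and A20C. The seed GUAAACA stood at positions 2 to 8 of 4 of 1679 mature miRNA names of the table (0.238%): these 3 and mmu-miR-384-5p. The table held no sequence of mmu-mir-30b or mmu-mir-30d, so this count leaves them out.

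mmu-mir-30c-1 and mmu-mir-30c-2 give an identical 5p sequence from different hairpins. The hairpins are shown with that sequence in capitals.
mmu-mir-30c-1: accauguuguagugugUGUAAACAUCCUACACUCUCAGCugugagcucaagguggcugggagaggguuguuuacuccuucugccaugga
mmu-mir-30c-2: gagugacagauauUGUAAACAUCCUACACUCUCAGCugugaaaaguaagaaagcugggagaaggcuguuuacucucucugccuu
Reads of the shared 5p sequence cannot be assigned to one of the 2 precursors. Only the 3p arms can be told apart, and mmu-miR-30c-2-3p differed from mmu-miR-30c-1-3p by G9A, U12C and C22U. How the counting divided shared reads is not given in the sources used here, so the values of the 2 entries are uncertain and are not independent measurements.

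On GRCm38 (GENCODE vM21), mmu-mir-30a (chromosome 1, 23272269 to 23272339, plus strand) lay 19361 bases from mmu-mir-30c-2 (chromosome 1, 23291701 to 23291784, plus strand). mmu-mir-30a overlapped no other annotated gene, and mmu-mir-30c-2 lay in an exon of the lincRNA Gm27028. mmu-mir-30c-1 (chromosome 4, 120769534 to 120769622, minus strand) and mmu-mir-30e (chromosome 4, 120772606 to 120772697, minus strand) lay 2983 bases apart in introns of Nfyc, which encodes a subunit of the transcription factor NF-Y, on the same strand. mmu-mir-30e also overlapped an exon of Mir30f on the opposite strand. The mir-30f entry ran from 0 to 6 counts and was not among the 6 members. mmu-mir-30b (chromosome 15, 68337415 to 68337510, minus strand) and mmu-mir-30d (chromosome 15, 68341208 to 68341289, minus strand) lay 3697 bases apart, in exons of the noncoding genes Gm26621 and Gm20732. mmu-mir-30d also overlapped Gm37296.

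Library totals ran from 465387 to 4819724 miRNA counts. Control dHC library 24 was the shallowest. Of the marker lists, oligodendrocyte miRNAs were called higher in dHC for 3 of 3 entries in control mice and for 3 of 3 after AS. For 8 choroid plexus and ciliated cell miRNAs, region calls were 8 in control mice (5 higher and 3 lower in dHC) and 5 after AS (2 and 3). Of 4 red blood cell miRNAs, 2 were called lower in dHC in control mice and 1 after AS. This list holds mmu-mir-486a and mmu-mir-486b, both with a lowest count of 58, which may not be independent measurements. The endothelial, microglia and immune cell, and neuron lists had 0 region calls. Over all 463 entries, 22.5% were called for region in control mice and 20.3% after AS.

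The family was among the abundant miRNAs of the hippocampus. The 6 members together took between 5.96% (control vHC library 1) and 8.74% (swim dHC library 16) of all miRNA counts, with a median of 7.72% over 26 libraries. By group, the mean share was 7.14% ± 0.586 (SD, n = 8) in control vHC, 7.74% ± 0.214 (n = 6) in swim vHC, 7.62% ± 0.381 (n = 6) in control dHC and 7.93% ± 0.613 (n = 6) in swim dHC. The ranges of the 4 groups overlapped. By block, it was 7.63% ± 0.751 (SD, n = 10), 7.32% ± 0.460 (n = 8) and 7.74% ± 0.222 (n = 8), so that the summed share moved little between blocks.

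Levels are given as normalized CPM, the count as a share of the TMM-scaled miRNA total of its library. Over 26 libraries, mmu-mir-30a was the highest at 24303 ± 3966 (SD), followed by mmu-mir-30d at 18183 ± 2919 and mmu-mir-30e at 13773 ± 2577. mmu-mir-30c-2 (8321 ± 2403) and mmu-mir-30c-1 (8204 ± 2404) came next and were not separated by their spread, and mmu-mir-30b was the lowest at 3038 ± 861. The spread was 16.1% to 18.7% of the mean for mmu-mir-30a, mmu-mir-30d and mmu-mir-30e, and 28.3% to 29.3% for mmu-mir-30b and both mir-30c entries. In every library the count of mmu-mir-30c-2 was above that of mmu-mir-30c-1, by 0.791% to 6.90% (median 1.36%).

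**Figure D1:**
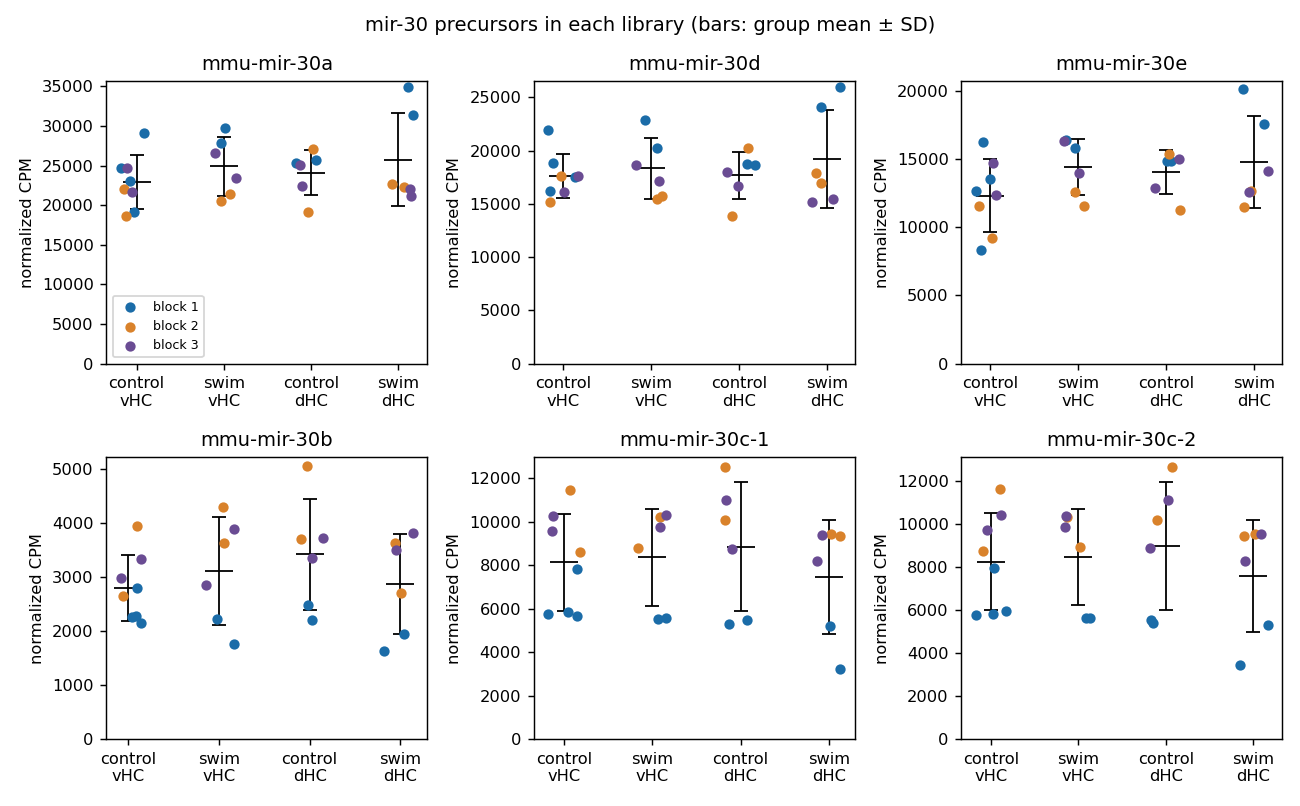
Normalized CPM of each mir-30 precursor (y axis, from 0) in the 26 libraries by group (x axis), 1 point per library coloured by block. Bars are the group mean and SD. In the lower panels the block 1 points lie at the bottom of every group, except that for mmu-mir-30b control vHC library 1 (2801) is above library 23 of block 2 (2661), and for both mir-30c entries all 10 are below all 16 points of blocks 2 and 3.

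The first comparison asks whether AS changed the family. No member passed the test in either region. With stress and its interaction with region tested together, 0 of 6 members and 0 of 463 entries were called (0%) by edgeR, while 16 entries, 0 of them members, reached an unadjusted p below 0.05. Member adjusted p-values ran from 0.725 to 0.793.

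In vHC, the member furthest from 0 was mmu-mir-30e. Its normalized CPM ran from 8344 through a median of 12490.1 to 16268 in control and from 11533 through 14883 to 16380.4 in swim libraries, and the groups overlapped. The fitted log2 difference (swim minus control) was 0.23 (SE 0.124, 95% interval -0.020 to 0.49, edgeR adjusted p = 0.655). mmu-mir-30a gave 0.14 (SE 0.0992), mmu-mir-30b 0.090, mmu-mir-30d 0.077, mmu-mir-30c-1 0.067 and mmu-mir-30c-2 0.063. Of the 463 entries, 0 (0%) passed in vHC, and 34 reached an unadjusted p below 0.05 by edgeR, 0 of them members.

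In dHC the members fell on both sides of 0, and the groups overlapped for every member. mmu-mir-30b ran from 2218 through 3526 to 5062 normalized CPM in control and from 1644.5 through 3113 to 3821 in swim libraries, a fitted log2 difference of -0.31 (SE 0.144, 95% interval -0.61 to -0.020, unadjusted p = 0.0374 and adjusted p = 0.982 by edgeR). mmu-mir-30c-1 ran from 5319.9 through 9421 to 12530.2 in control and from 3226 through 8764 to 9425 in swim libraries (log2 difference -0.29, SE 0.123, edgeR adjusted p = 0.982). mmu-mir-30c-2 gave -0.27 (SE 0.118). The other 3 members gave 0.12 (mmu-mir-30a), 0.15 (mmu-mir-30d) and 0.084 (mmu-mir-30e). Of the 463 entries 0 (0%) passed in dHC. An unadjusted p below 0.05 was seen for 17 of them by edgeR, and 3 of these were members, including both mir-30c entries. With precursor copies summed, 1 of 5 members reached it by edgeR. With no surrogate variables or block, or with only the groups compared, 0 did.

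Swim dHC library 6 had the highest mmu-mir-30a (34869), mmu-mir-30d (25929.8) and mmu-mir-30e (20129) of all 26 libraries and the lowest mmu-mir-30b (1644.5), mmu-mir-30c-1 (3226) and mmu-mir-30c-2 (3448). With 1 library left out in turn, the dHC log2 differences stayed negative, from -0.38 to -0.20 for mmu-mir-30b, from -0.34 to -0.18 for mmu-mir-30c-1 and from -0.33 to -0.17 for mmu-mir-30c-2. Without swim dHC library 6, control dHC library 8, control dHC library 14, control dHC library 18 or swim vHC library 19, 0 of these members kept an unadjusted p below 0.05 by edgeR. The difference between the regions in their response gave log2 values of -0.40 (mmu-mir-30b), -0.35 (mmu-mir-30c-1) and -0.34 (mmu-mir-30c-2), with adjusted p = 0.954 for each by edgeR, and 0 of 463 entries (0%) were called.

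The second comparison asks whether the family differed between the regions. In control mice 0 of 6 members were called, while 22.5% of the 463 entries were (104, by edgeR with block as a covariate). After AS, 0 of 6 members were called against 20.3% of entries (94). In control mice the log2 difference (dHC minus vHC) was 0.23 for mmu-mir-30e (SE 0.122, 95% interval -0.016 to 0.48, edgeR adjusted p = 0.159). It was 0.13 for mmu-mir-30b, 0.12 for mmu-mir-30a, 0.058 for mmu-mir-30d and -0.053 and -0.052 for mmu-mir-30c-1 and mmu-mir-30c-2. After AS the widest value was that of mmu-mir-30c-1, at -0.20 (SE 0.120, 95% interval -0.44 to 0.049, edgeR adjusted p = 0.274). The intervals of all 6 members in both comparisons lay between -0.44 and 0.48. With surrogate variables in place of block, 1 member was called in control mice and 2 after AS. In that fit the second surrogate variable shared 91.1% of its variance with region.

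**Figure D2:**
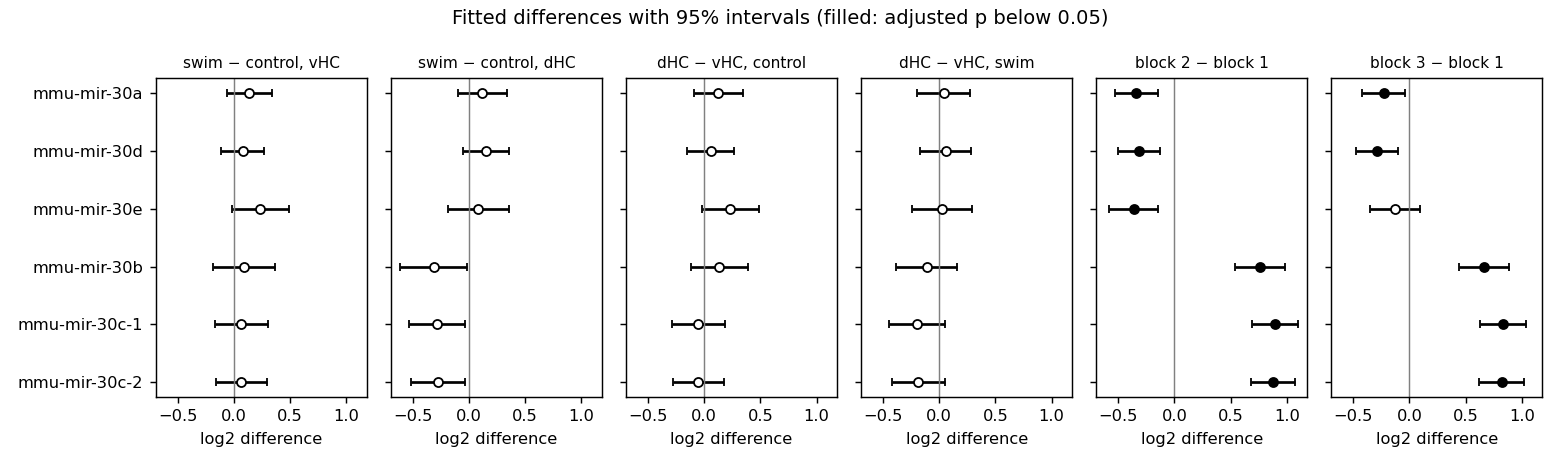
Fitted log2 difference (x axis) of each member (y axis) with its 95% interval in 6 comparisons, filled where the adjusted p was below 0.05. Intervals cross or lie near 0 in the 4 stress and region panels, while in both block panels mmu-mir-30b and the mir-30c entries lie above 0 and mmu-mir-30a, mmu-mir-30d and mmu-mir-30e below it, with the interval of mmu-mir-30e in block 3 crossing 0.

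Among these comparisons, the widest differences in the family were between blocks. With both block terms tested together, 6 of 6 members were called against 53.1% of the 463 entries (246). mmu-mir-30b, mmu-mir-30c-1 and mmu-mir-30c-2 were higher in blocks 2 and 3 than in block 1, and mmu-mir-30a and mmu-mir-30d were lower. mmu-mir-30e was called lower in block 2 and not in block 3, and its difference between blocks 3 and 2 was not called (log2 0.23, SE 0.112, edgeR adjusted p = 0.433).

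The mir-30c entries gave the widest separation. mmu-mir-30c-1 ran from 3226 through a median of 5552 to 7857 normalized CPM in block 1, from 8607 through 9750.3 to 12530.2 in block 2 and from 8187 through 9676.5 to 11006 in block 3. All 16 libraries of blocks 2 and 3 were above all 10 of block 1, which held for 1.94% of the entries tested (9 of 463). In log2 terms, block 2 was higher than block 1 by 0.89 (SE 0.100, edgeR adjusted p = 6.63e-08) and block 3 by 0.83 (SE 0.100, adjusted p = 2.61e-07). mmu-mir-30c-2 gave 0.88 and 0.82 and likewise did not overlap.

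mmu-mir-30b ran from 1644.5 through 2219.5 to 2801 in block 1, from 2661 through 3674 to 5062 in block 2 and from 2866 through 3430.4 to 3892 in block 3, so that block 2 overlapped block 1 at its lower end. Its log2 differences from block 1 were 0.76 (SE 0.110, edgeR adjusted p = 3.22e-06) and 0.66 (SE 0.110, adjusted p = 2.46e-05). Of all entries, 22.7% were called higher in block 2 and 22% in block 3.

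The other 3 members moved less, and their blocks overlapped. mmu-mir-30a ran from 19181 through 26789 to 34869 in block 1, from 18585.5 through 21764 to 27042 in block 2 and from 21169 through 22949 to 26562 in block 3. Its log2 differences from block 1 were -0.34 (SE 0.0941, edgeR adjusted p = 0.00424) and -0.23 (SE 0.0939, adjusted p = 0.0448). mmu-mir-30d gave -0.31 (SE 0.0910, edgeR adjusted p = 0.00536) and -0.29 (SE 0.0910, adjusted p = 0.0103), and mmu-mir-30e gave -0.36 (SE 0.108, edgeR adjusted p = 0.00645) and -0.13 (SE 0.107, adjusted p = 0.315). The call of mmu-mir-30a in block 3 held in 7 of 35 alternatives and that of mmu-mir-30d in 27 of 35, with no change of direction. Of all entries, 29.8% were called lower in block 2 and 30% in block 3. With DESeq2 size factors, TMMwsp scaling or the DESeq2 test, the count of members called for block was 3 in place of 6. It was also 3 without control vHC library 7, control vHC library 9, swim dHC library 16 or control vHC library 17.

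Between blocks 3 and 2, 0 of 6 members and 0 of 463 entries (0%) were called by edgeR, with 51 entries and 1 member (mmu-mir-30e) at an unadjusted p under 0.05. Without libraries 1, 6 and 24 together, a choice made after seeing the data, 15 of 471 entries were called by edgeR. They included 1 member, mmu-mir-30e (edgeR adjusted p = 0.0416).

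Ratios of 2 members within a library do not depend on the scaling between libraries. Each genomic pair held 1 member of each kind, and its ratio moved with block. The log2 ratio of mmu-mir-30c-2 to mmu-mir-30a was -2.27 ± 0.51 (SD, n = 10) in block 1, -1.09 ± 0.21 (n = 8) in block 2 and -1.26 ± 0.12 (n = 8) in block 3. For mmu-mir-30c-1 to mmu-mir-30e it was -1.43 ± 0.63, -0.25 ± 0.24 and -0.53 ± 0.15, and for mmu-mir-30b to mmu-mir-30d -3.23 ± 0.43, -2.18 ± 0.44 and -2.30 ± 0.23.

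The shift was present in each group. The mean log2 ratio of mmu-mir-30c-2 to mmu-mir-30a in blocks 1, 2 and 3 was -1.91, -1.01 and -1.20 in control vHC, -2.35, -1.13 and -1.30 in swim vHC, -2.21, -1.001 and -1.26 in control dHC, and -2.95, -1.24 and -1.28 in swim dHC, over 2 libraries each except for 4 control vHC libraries in block 1. Control vHC library 1 was the block 1 library nearest to the later blocks (-1.27), and swim dHC library 6 was the furthest from them (-3.34). As a share of the family's counts, mmu-mir-30b and the mir-30c entries together rose from 18.1% ± 5.19 (SD, n = 10) in block 1 to 32.3% ± 3.59 (n = 8) in block 2 and 29.7% ± 1.66 (n = 8) in block 3.

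**Figure D3:**
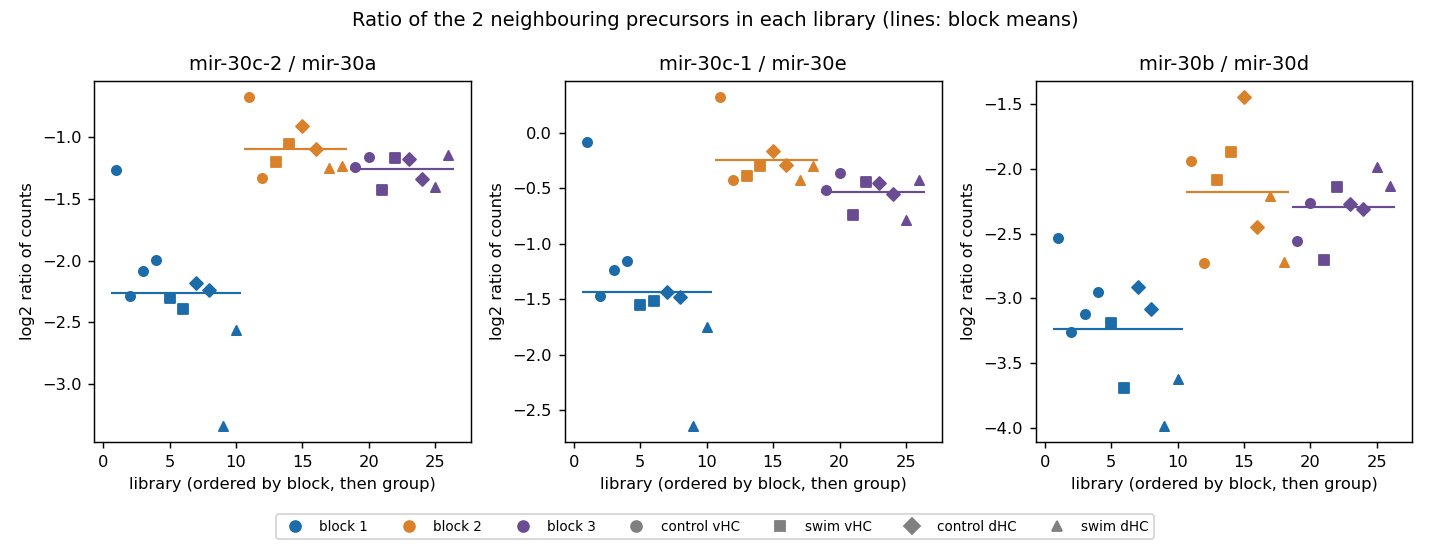
Log2 ratio of the counts of 2 neighbouring precursors (y axis) in each library (x axis, ordered by block and then group), with colours for blocks, symbols for groups and lines at block means. In all 3 panels block 1 has the lowest mean, with control vHC library 1 as its highest point and swim dHC library 6 as its lowest.

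The members fell into 2 sets that crossed the genomic pairs. Over 26 libraries, the SD of the log2 ratio was 0.066 between mmu-mir-30a and mmu-mir-30d, 0.112 between mmu-mir-30a and mmu-mir-30e and 0.176 between mmu-mir-30d and mmu-mir-30e. It was 0.016 between the mir-30c entries, which share their 5p reads, and 0.226 and 0.231 between mmu-mir-30b and mmu-mir-30c-2 or mmu-mir-30c-1. The 9 pairs with 1 member from each set gave 0.608 to 0.667, and the 3 genomic pairs were among these 9 (0.616 for mmu-mir-30b and mmu-mir-30d, 0.638 for mmu-mir-30a and mmu-mir-30c-2, 0.667 for mmu-mir-30c-1 and mmu-mir-30e). Much of this gap went with block. After block and group were fitted, the SDs of the 9 pairs fell to between 0.291 and 0.406. Those between mmu-mir-30b and the mir-30c entries stayed at 0.224 and 0.227. Among mmu-mir-30a, mmu-mir-30d and mmu-mir-30e they were 0.051 to 0.137. For the members with a printed sequence, mmu-mir-30a and mmu-mir-30e, which differ by C13U, stood in one set, and the mir-30c entries, which differ from them at 5 positions behind the seed, in the other. These SDs describe libraries that share blocks and depth, and carry no test. Counts of members other than the mir-30c entries were not whole either. In control vHC library 1 they were 33244.17 (mmu-mir-30a), 28055.67 (mmu-mir-30d), 14461.67 (mmu-mir-30e) and 4853.83 (mmu-mir-30b), while the family's count was 108035. Reads may thus have been divided between members beyond the mir-30c copies. The SDs may not be those of independently counted entries, and the part of shared reads in them was not tested.

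**Figure D4:**
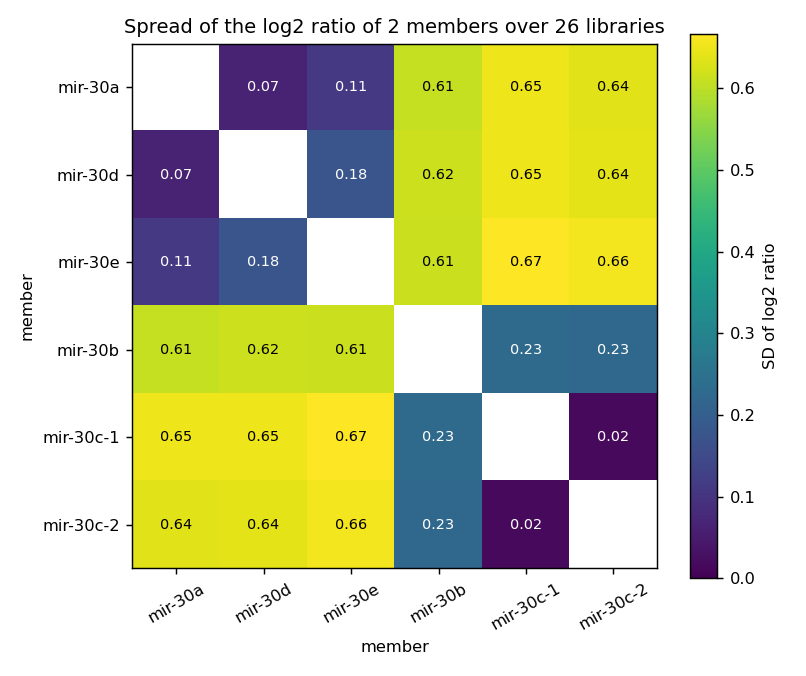
SD over 26 libraries of the log2 ratio of the counts of 2 members (colour and number), for every pair of members on both axes. Differences between blocks are not taken out. The 3 by 3 corners for mir-30a, mir-30d and mir-30e and for mir-30b and the mir-30c entries hold 0.02 to 0.23, and the other cells 0.61 to 0.67.

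Other measures moved with block as well, as did much of the table. Over all 463 entries, 22.7% were called higher and 29.8% lower in block 2, and 22% and 30% in block 3. The summed normalized CPM of 4 microglia and immune cell miRNAs ran from 2186 to 3293 in block 1, from 1735 to 2398 in block 2 and from 1566 to 2328 in block 3, with 2 of 4 called lower in each later block. The endothelial sum ran from 3925 to 8475, from 6149 to 9321 and from 7938 to 11315, and its 1 tested entry of 2 was called higher in block 3. Of 8 tested neuron miRNAs, 4 were called lower in block 2 and 4 in block 3, and of 3 oligodendrocyte miRNAs 1 was called higher in each. The 8 neuron entries are not independent measurements. They include mmu-mir-124-1, mmu-mir-124-2 and mmu-mir-124-3, with nearly equal mean CPM (14227, 14225 and 14224), and copies of mir-128 and mir-138. Red blood cell miRNAs gave 3 calls of 4 in block 2 (2 higher, 1 lower) and 1 lower in block 3, and choroid plexus and ciliated cell miRNAs 3 of 8 in each (2 higher, 1 lower). In the red blood cell list, mmu-mir-486a and mmu-mir-486b had close mean CPM (157 and 151) and may not be independent measurements. The part of any of these in the family's block differences was not tested, and what was done on the dates that name the blocks cannot be told apart from other differences between the blocks. In bulk tissue, fewer cells of a type and less RNA per cell cannot be told apart either.

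Other families differed in how their members moved with block. Of 12 let-7 entries, 8 were called higher and 0 lower in block 2, with a median log2 difference of 0.32. In block 3, 6 were called higher and 1 lower (median 0.26). With both block terms tested together, 6 of 12 were called, against 53.1% of all entries. Of 4 mir-29 entries, 4 were called lower in block 2 (median -0.78) and 4 in block 3 (median -0.73). Of 3 mir-26 entries, 1 was called lower in each (median 0.098 and -0.041). Over all 463 entries the median was -0.047 in block 2 and -0.081 in block 3. Of all entries, 22.7% were called higher and 29.8% lower in block 2. The lists hold copies, such as mmu-let-7a-1 and mmu-let-7a-2, so their entries may not be independent measurements. mmu-mir-384, the other precursor whose 5p carries the seed, was lower in block 2 by a log2 difference of -0.46 (SE 0.0891, edgeR adjusted p = 0.000133) at a mean of 4742 normalized CPM. After AS it was lower in dHC than in vHC (log2 difference -0.40, SE 0.106, edgeR adjusted p = 0.00659), and in control mice the value was -0.23 (SE 0.101, adjusted p = 0.0967). It was named after its values could be seen. For stress and for region in control mice or after AS, 0 entries of the let-7, mir-26 and mir-29 families were called.

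Depth was examined because libraries differed widely in total count. With the log2 total as a covariate, 1 of 6 members was called, while 1.73% of entries were called higher and 5.62% lower with depth. mmu-mir-30d fell by 0.15 on the log2 scale per doubling of the total (SE 0.0469, edgeR adjusted p = 0.0496), and the other 5 members had adjusted p-values from 0.127 to 0.311. The call lay at the threshold and was lost under most alternatives, and without control vHC library 1 or swim dHC library 6 it was 2 members.

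The entries most like the family's summed count over 26 libraries, by the SD of the log2 ratio to that sum, were mmu-mir-27a (0.129), mmu-mir-100 (0.155), mmu-mir-27b (0.158), mmu-mir-99a (0.169) and mmu-mir-218-1 (0.171), against a median of 0.450 over 457 other entries. In block 2 against block 1 the log2 differences of these 5 ran from -0.20 (mmu-mir-218-1) to 0.20 (mmu-mir-99a), and none was called for block. The 5 were chosen for a steady ratio to a sum whose share moved little between blocks. Small block differences among them were thus favoured by the choice.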

How the data were processed

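Small RNA was measured in 26 libraries, and the labels gave groups and blocks. The authors prepared NextFlex v3 libraries in 3 batches, removed adapters with cutadapt, merged reads that had both sequence and molecular tag in common, and quantified annotated RNAs with Sports; the submitters' notes name GRCm38. The values the authors deposited are expected counts per annotated RNA, not normalized, of which 29.5% were not whole (tolerance 0.001). They were rounded here. Because reads of 1 sequence can belong to several precursors, copies such as the mir-30c entries share counts.

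Entries were filtered with filterByExpr by group (minimum count 10, minimum total 15) and scaled by TMM. Tests were edgeR 4.0.16 quasi-likelihood tests in R 4.3.3 on all 26 libraries, adjusted by Benjamini-Hochberg over 463 entries at a threshold of 0.05. Stress was tested with region, stress, their interaction and 2 surrogate variables (sva 3.50.0), after the study's methods. Region and block were tested with block and no surrogate variables, and depth with the log2 total added. Standard errors are the log2 difference over the root of F. The SDs of log2 ratios used rounded counts plus 0.5. Ratios given by library, block and group used the unrounded counts with nothing added. The procedure was run on simulated data, whose outcome is not reported here. Those data held no block difference where stress or region differences were simulated, unlike the libraries. DESeq2 1.42.0 was an alternative. Figures were drawn with matplotlib in Python. The deposited table had 0 columns without a sample. All 6 members were named, with the 5 entries most like their sum. The members and lists were chosen with earlier results of these data known. Library totals of 465387 to 4819724 counts limit counting error, and the spread between libraries is the larger source of error for these abundant entries.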

Additional observations from a re-analysis of the deposited data

Results flagged for a closer look

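The family took 6.85% of miRNA counts in control dHC library 24, below the other 5 control dHC libraries, of which the next was at 7.68%. The gap was 0.804 of the group's range, above the 95% critical value of Dixon's test for 6 libraries. This library was the shallowest, with 465387 miRNA counts, and a part of depth in the value was not tested. Of 28 sets of values examined, 1 stood out in this way, where 1.4 would by chance.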

How the results depend on the processing

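Over the alternatives that fitted block, the rise of mmu-mir-30b, mmu-mir-30c-1 and mmu-mir-30c-2 in blocks 2 and 3 kept its direction and its call in 35 of 35. The number of members called for block was 3 with DESeq2 size factors, 3 with TMMwsp scaling, 3 with the DESeq2 test and 3 to 6 when 1 library was left out, and 5 of 5 entries with the mir-30c copies summed. The cause was not tested. For depth it was 0 with DESeq2 size factors, the library size over the whole table, no filter, unrounded counts, copies summed, no block or surrogate variables, each of blocks 1, 2 and 3 alone, or without libraries 1, 6 and 24 together (a choice made after seeing the data), and 0 to 2 when 1 library was left out. With surrogate variables in place of block, 1 member was called between regions in control mice and 2 after AS. The counts for stress and its interaction stayed at 0 in every alternative run. No paired analysis was possible because the labels do not say which dHC and vHC libraries share a mouse.

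The other changes of direction were in log2 differences that had not been called, except for the depth slope of mmu-mir-30d, which had been called at -0.15 and was 0.10 in block 1 alone. Within block 1 alone, the depth slope was 0.15 (mmu-mir-30a), 0.23 (mmu-mir-30c-1), 0.19 (mmu-mir-30c-2) and 0.28 (mmu-mir-30e), stress in vHC was -0.22 (mmu-mir-30b), -0.15 (mmu-mir-30c-1) and -0.14 (mmu-mir-30c-2), the interaction was 0.096 (mmu-mir-30a) and region in control mice -0.012 (mmu-mir-30b). Within block 2 alone, region in control mice was 0.20 (mmu-mir-30c-1) and 0.19 (mmu-mir-30c-2), region after AS 0.030 and 0.033, stress in vHC -0.058 (mmu-mir-30c-1), -0.062 (mmu-mir-30c-2) and -0.058 (mmu-mir-30d), and stress in dHC -0.095 (mmu-mir-30e). Within block 3 alone, region after AS was -0.22 (mmu-mir-30a), 0.11 (mmu-mir-30b), -0.24 (mmu-mir-30d) and -0.19 (mmu-mir-30e), stress in dHC -0.19 (mmu-mir-30a), -0.23 (mmu-mir-30d) and -0.11 (mmu-mir-30e), region in control mice 0.017 (mmu-mir-30c-1) and 0.016 (mmu-mir-30c-2), stress in vHC -0.0014 and -0.0051, and the interaction -0.30 (mmu-mir-30d).

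Without libraries 1, 6 and 24, region after AS was -0.0043 (mmu-mir-30a) and -0.024 (mmu-mir-30e), stress in dHC -0.0074 (mmu-mir-30a) and -0.020 (mmu-mir-30e), region in control mice 0.0090 (mmu-mir-30c-1), 0.0076 (mmu-mir-30c-2) and -0.0020 (mmu-mir-30d), and the interaction -0.065 (mmu-mir-30d). With only the groups compared, stress in vHC was -0.029 (mmu-mir-30a), -0.036 (mmu-mir-30d) and -0.023 (mmu-mir-30e), and stress in dHC -0.025 (mmu-mir-30e). With surrogate variables and block exchanged, region in control mice was -0.92 (mmu-mir-30b), stress in vHC -0.014 (mmu-mir-30b), -0.12 (mmu-mir-30c-1) and -0.12 (mmu-mir-30c-2), and the interaction -0.0019 (mmu-mir-30d). Region in control mice for mmu-mir-30c-1 and mmu-mir-30c-2 was 0.0039 and 0.0046 with DESeq2 size factors, 0.0057 and 0.0065 with TMMwsp, 0.0038 and 0.0046 with the DESeq2 test, and 0.12 and 0.12 without block. The interaction was 0.016 for mmu-mir-30a with depth as a covariate and -0.0013 for mmu-mir-30d with copies summed, and region after AS was -0.00057 for mmu-mir-30e with no filter.

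When 1 library was left out, the interaction ran from -0.11 to 0.028 (mmu-mir-30a) and from -0.022 to 0.14 (mmu-mir-30d), region after AS from -0.026 to 0.074 (mmu-mir-30a), from -0.0036 to 0.10 (mmu-mir-30d) and from -0.046 to 0.062 (mmu-mir-30e), region in control mice from -0.090 to 0.028 (mmu-mir-30c-1) and from -0.087 to 0.027 (mmu-mir-30c-2), block 3 against block 2 from -0.012 to 0.069 (mmu-mir-30d), and stress in dHC from -0.0079 to 0.11 (mmu-mir-30e).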
